A study of Drosophila melanogaster with 2 samples.

Results

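This account is about the protein-coding fly genes whose names begin with eIF or eEF, the translation initiation and elongation factors, and about where a GFP-tagged Sox102F protein was found near them. The members were taken by name from the annotation, which gave 52 of the 13945 protein-coding genes on the 6 main arms, 44 of them initiation factors and 8 elongation factors. Binding was mapped by chromatin immunoprecipitation and sequencing (ChIP-seq) with an antibody that the description gives as anti-GFP and another label field as Sox102F, in 1 group of 2 biological replicates, numbered 1 and 4. Both came from a single transgenic Drosophila melanogaster line, strain Sox102F-GFP, with GFP at the C terminus of Sox102F. Whole animals of both sexes were pooled at the white prepupa stage, the onset of metamorphosis, and their age is given as unknown. In whole animals, the number of bound cells and the binding per cell cannot be told apart. No untagged line, other genotype or other stage was analysed here, so there is no contrast between conditions and no p-value is given.

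The measure is the summit, the single base at which the authors placed the top of each peak. A gene was counted when a summit of the authors' optimal list lay within 1 kb (1000 bp) of any of its annotated transcription starts. That list holds 7055 peaks chosen by agreement between the replicates, and each replicate list holds 30000 entries, background included. A signal is the authors' own value per peak. It ranks peaks within 1 list and is not comparable as an amount between lists. Sequencing depth is unknown, because no read counts were used.

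Translation begins when initiation factors load the first tRNA and the mRNA's capped end onto the small ribosomal subunit and bring the large subunit to it. Elongation factors then deliver each further tRNA and move the ribosome along. Most of these genes are expressed in nearly every cell, and several have duplicates with narrower expression. Sox102F is the fly member of the SoxD group, whose HMG domain is known to bind short words close to ACAAT.

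The DNA under 6 member summits is shown first, as examples of the sequence at the strongest member peak and at 5 others, with and without the searched words. Each reads 5′ to 3′ on the gene's strand, on dm6, from 50 bp before to 50 bp after the summit, except that eEF1gamma ends 15 bases into its transcript. Capitals mark ACAAT or its reverse complement ATTGT, the longer AACAAT, which contains ACAAT, and the DRE word TATCGATA. The other words searched, all on both strands, were GAGAG, the E-box CACGTG and GGTCACAC, and none was in these 6 windows. A match is a run of letters and not a shown binding site, and its absence concerns these windows only. The sequence is that of the NCBI RefSeq release 6 assembly. The first window is chrX:2703849-2703949 (+), the second chr3R:24109155-24109255 (−), the third chr2L:5980998-5981098 (+), the fourth chr3L:3223192-3223292 (+), the fifth chr3L:12526966-12527066 (−) and the last chr3R:29220106-29220186 (+).
eIF2Bbeta: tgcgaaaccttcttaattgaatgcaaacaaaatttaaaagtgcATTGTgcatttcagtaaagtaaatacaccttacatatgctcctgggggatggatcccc
eIF4EHP: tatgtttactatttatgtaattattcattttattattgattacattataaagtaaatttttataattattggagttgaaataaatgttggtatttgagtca
eIF4A: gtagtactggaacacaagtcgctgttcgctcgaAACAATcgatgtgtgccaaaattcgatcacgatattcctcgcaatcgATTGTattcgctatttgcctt
eIF1: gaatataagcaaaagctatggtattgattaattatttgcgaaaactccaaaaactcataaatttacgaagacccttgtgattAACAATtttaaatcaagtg
eIF2beta: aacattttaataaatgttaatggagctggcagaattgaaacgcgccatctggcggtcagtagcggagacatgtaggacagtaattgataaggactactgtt
eEF1gamma: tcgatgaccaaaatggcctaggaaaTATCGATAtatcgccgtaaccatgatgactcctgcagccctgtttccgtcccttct

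The share of factor genes with a summit was close to that of all protein-coding genes. An optimal summit lay within 1 kb of a start in 12 of the 52 members (23.1%), against 20.3% of all protein-coding genes. Replicate 4 alone, cut to its 7055 strongest entries, gave the same 12 genes, against a background of 19.5%. Replicate 1 alone, cut likewise, gave those 12 and also eIF2A, eIF2Bgamma and eIF5, which makes 15 of 52 (28.8%) against a background of 23.8%.

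Among initiation factors 8 of 44 (18.2%) had a summit, and among elongation factors 4 of 8 (50%), against 20.3% of all protein-coding genes. The elongation count was 4 in each replicate, and the initiation count was 11 in replicate 1 and 8 in replicate 4. With only 8 elongation factors, each gene moves that share a long way, and the difference was not tested, because genes are not replicates.

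**Figure D1:**
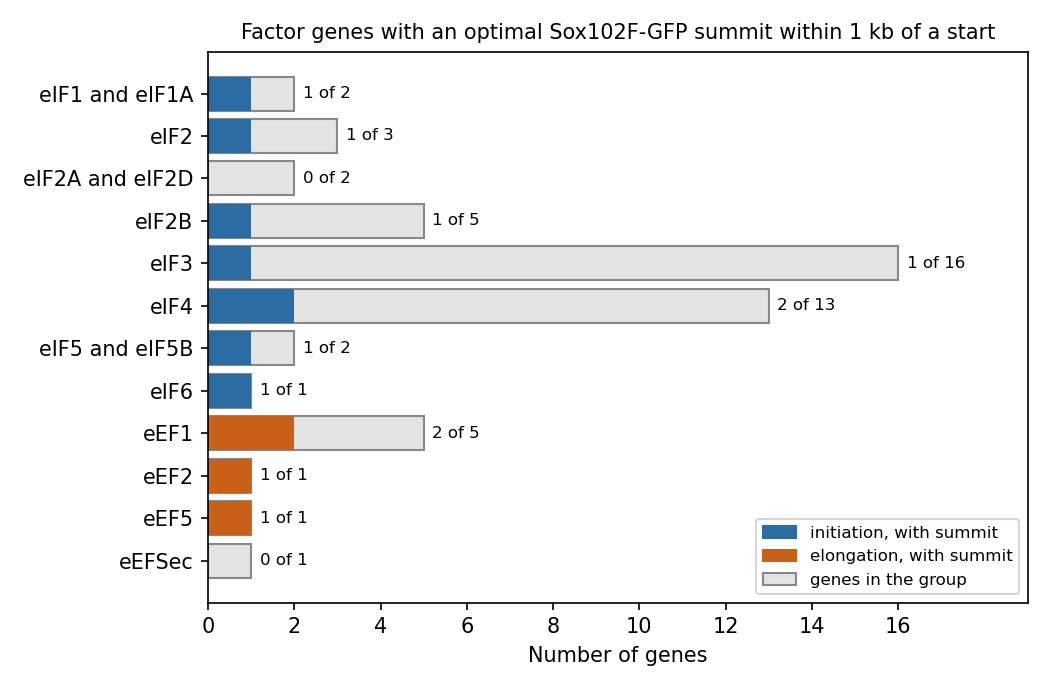
Number of genes in each factor group (grey bars) and the number with an optimal summit within 1 kb of a start (coloured part). The multi-subunit eIF3 and the eIF4 group hold 29 of the 52 genes and 3 of the 12 with a summit. Of all protein-coding genes 20.3% had a summit, and the differences were not tested. Of the single-gene groups, eIF6, eEF2 and eEF5 have one and eEFSec has none.

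Counts by complex were small and were not tested, and 20.3% of all protein-coding genes had a summit. For eIF3, the large scaffold that sits on the small subunit, 1 of 16 genes had a summit. The exchange factor eIF2B had 1 of 5, eIF2, which carries the initiator tRNA, 1 of 3, and the eIF4 group, which handles the mRNA cap, 2 of 13. The pairs eIF1 with eIF1A and eIF5 with eIF5B had 1 of 2 each. The tRNA carriers eIF2A and eIF2D had 0 of 2. Among elongation factors, eEF1 had 2 of 5.

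The strongest member peak lay upstream of eIF2Bbeta and nearer to a start of another gene. eIF2Bbeta (FBgn0024996) encodes a subunit of the exchange factor that reloads eIF2 with GTP. Its peak (X, 2703679 to 2704093) had a signal of 2420 and ranked 5 of 7055, with signals of 1239.9 in replicate 1 and 1186.4 in replicate 4. The ranks there were 2 and 7 in the replicates' own lists. The summit lay 672 bp upstream of the eIF2Bbeta start and 47 bp from a start of Ugalt, a divergently transcribed gene for a sugar nucleotide transporter. Its window above holds 1 ATTGT, starting 7 bp before the summit.

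Next by signal was eIF6, a single-gene factor. eIF6 (FBgn0034915) binds the large ribosomal subunit and keeps it from joining the small one too early. Its peak (2R, 23850249 to 23850560) had a signal of 961.3 and ranked 95, with 522.7 in replicate 1 and 434.8 in replicate 4. The summit was 99 bp upstream of the start, in an intron of ytr, and an antisense RNA gene, asRNA:CR45928, also starts within 1 kb.

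eIF4EHP and eIF4A were the members of the cap-binding group with a summit. eIF4EHP (FBgn0053100) encodes a cap-binding protein that, unlike eIF4E, represses translation of chosen mRNAs. Its peak (3R, 24108936 to 24109387) had a signal of 597.2 and ranked 314, with 375.7 in replicate 1 and 226.8 in replicate 4. The summit lay 245 bp upstream of its start and 131 bp from that of CG18428, and the window above is 83.2% A and T with none of the words. Its gene body of 45884 bp holds 3 further optimal summits with signals of 284.8, 155.4 and 77.8. All 3 are nearer to a start of Syx1A, a gene within an eIF4EHP intron, at 635, 6609 and 90 bp in that order. eIF4A (FBgn0001942), the RNA helicase that opens the mRNA's leader, had a signal of 147.0 (2L, 5980833 to 5981262), with 64.5 in replicate 1 and 85.4 in replicate 4. That summit was 716 bp upstream of eIF4A and 30 bp from a start of chic, the profilin gene, and the window holds AACAAT and a separate ATTGT.

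The cap-binding protein genes eIF4E1, eIF4E3, eIF4E5, eIF4E6 and eIF4E7 had no entry within 1 kb of a start in any dm6 list. eIF4E4 had a single weak entry, in replicate 4, with a signal of 12.3 and rank 26669 of 30000. The scaffold gene eIF4G1, on chromosome 4, had a pooled entry of 45.7, below the optimal list's lowest signal of 76.7, with 14.7 in replicate 1 and 32.8 in replicate 4. eIF4G2, a paralog needed in the male germline, had 27.0 in replicate 1 and none in replicate 4.

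The remaining initiation factors with a summit were eIF3h, eIF5B, eIF2beta and eIF1. eIF3h (FBgn0022023) was the only one of the 16 eIF3 genes with a summit, and its overlapping peaks differed between replicates. The stronger summit (2L, peak 5052370 to 5052557) lay 284 bp downstream of an internal start, in an intron. Its signal was 326.6, and 184.1 in replicate 1, and no entry of replicate 4 lay within 100 bp of that summit. The weaker one (peak 5052509 to 5052938) lay 56 bp downstream, in a coding exon, with 288.2, and 135.2 in replicate 1 and 139.2 in replicate 4. The divergent gene senju starts 119 bp from the weaker summit.

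eIF5B (FBgn0026259), the GTPase that joins the ribosomal subunits, had a signal of 263.7 (3L, 3460659 to 3460878), with 150.3 in replicate 1 and 115.3 in replicate 4. Its summit lay 156 bp upstream of the nearest start, inside the 5′ UTR of a transcript from its other start, and CG46463 and armi start 556 and 558 bp away. The gene spans 32320 bp and holds 7 more optimal summits in introns, at 9987 to 27709 bp from its nearest start, with signals from 78.7 to 370.2. Those at 18329 to 27709 bp have a start of another gene, sty, nearer, at 7959 to 17339 bp. The intronic ones therefore include a higher signal than the promoter summit.

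eIF2beta (FBgn0004926), an eIF2 subunit, had a signal of 220.4 (3L, 12526961 to 12527084), with 126.7 in replicate 1 and 88.1 in replicate 4. The summit was 285 bp upstream, with no other protein-coding start within 1 kb and none of the searched words. eIF1 (FBgn0035423), which guards the choice of start codon, had the lowest signal of the 12, 102.4 (3L, 3223027 to 3223456), with 41.9 in replicate 1 and 50.1 in replicate 4. Its summit was 99 bp upstream of eIF1 and 282 bp from RpL28, a ribosomal protein gene on the other strand. In replicate 1 the strongest entry near eIF1 was another one, at -322 bp from the start on the RpL28 side, with a signal of 171.9.

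The strongest summit of each of the 4 elongation factors that had one lay within 37 bp of a start. eEF1gamma (FBgn0029176), a subunit of the exchange factor that recharges eEF1alpha, had a signal of 479.6 (3R, 29219955 to 29220281), with 232.3 in replicate 1 and 249.7 in replicate 4. The summit was 16 bp upstream of the start, and TATCGATA begins 25 bp before it. eEF2 (FBgn0000559), the GTPase that moves the ribosome by a codon, had a signal of 277.0 (2L, 21681867 to 21682296), with 128.4 in replicate 1 and 136.6 in replicate 4. That summit lay 34 bp downstream of an internal start, in the 5′ UTR.

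eEF1alpha1 (FBgn0284245) delivers aminoacyl-tRNA to the ribosome and is among the most abundant proteins of the cell. Its stronger summit (2R, peak 11891936 to 11892365) was 29 bp downstream of an internal start, with a signal of 222.7, and 121.3 in replicate 1 and 113.2 in replicate 4. A weaker summit (peak 11890790 to 11891219) lay 130 bp upstream of its first start and 26 bp from ERp60, with 85.5, and 59.5 in replicate 1 and 27.3 in replicate 4. The paralog eEF1alpha2 had no entry within 1 kb in any dm6 list. eEF5 (FBgn0285952), long called eIF5A, helps the ribosome through stalling sequences. It had a signal of 102.7 (2R, 24057675 to 24058104), with 62.2 in replicate 1 and 48.4 in replicate 4, and its summit was 37 bp downstream of a start and 753 bp from ppk29.

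**Figure D2:**
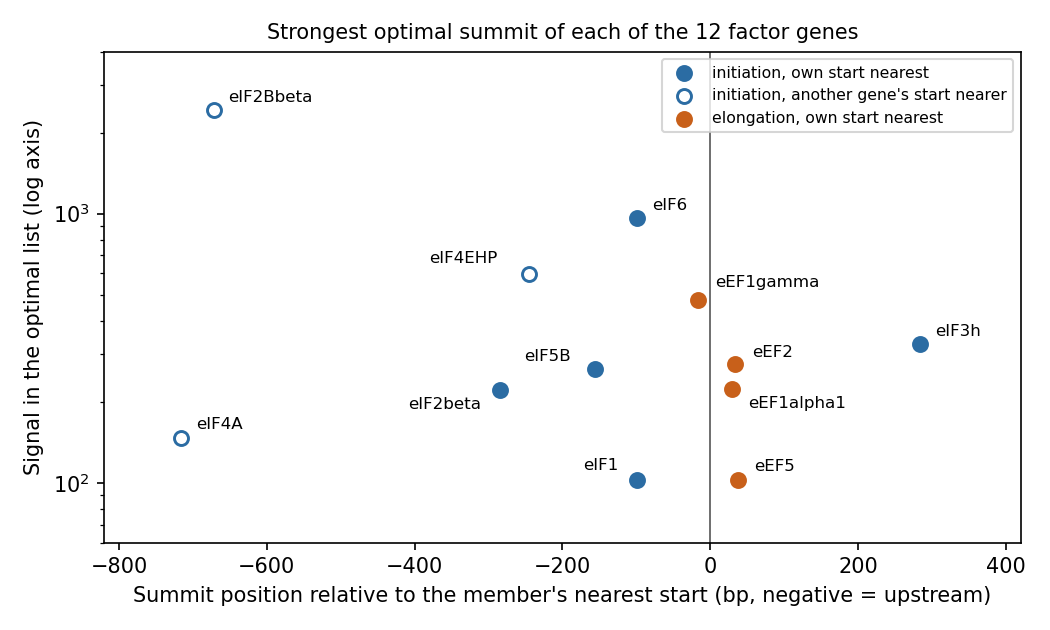
Strongest optimal summit of each of the 12 factor genes: position relative to the nearest start of the member in bp (horizontal) against signal in the optimal list (vertical, log axis). The 4 elongation factors lie within 37 bp of their nearest start, while the 8 initiation factors lie at least 99 bp away. Of all protein-coding genes with a summit, 26.2% lie within 100 bp. Open circles mark the 3 summits that are nearer to another gene's start.

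Counting the strongest summit of each gene and its nearest start, the distances of the 2 kinds of factor did not overlap. The strongest summits of the 8 initiation factors lay 99 to 716 bp from a start, with a median of 264.5 bp, and those of the 4 elongation factors 16 to 37 bp, with a median of 31.5 bp. Across all 2829 protein-coding genes with a summit the median was 202.0 bp, and 26.2% lay within 100 bp. Within 100 bp were 2 of 8 initiation factors, both at 99 bp, and 4 of 4 elongation factors. The medians in replicate 1 were 260.0 bp for initiation factors and 10 bp for elongation factors, and in replicate 4 they were 167.0 and 34.0 bp in the same order. In replicate 1 the entry of eIF2Bgamma, 6 bp from its start, ended the separation. A start window of 2000 bp added the elongation factor eEF1delta at 1190 bp and likewise ended it. Over all 14 member summits the ranges also overlapped, since the weaker eIF3h summit lay at 56 bp and the weaker eEF1alpha1 summit at 130 bp. Distances were to the nearest of any start, and the 4 elongation factors with a summit have 2 to 4 starts each. Of the initiation factors with a summit, eIF6, eIF1, eIF2beta, eIF4EHP and eIF2Bbeta have only 1. From the first start of eEF1alpha1 alone, its summit is the one at 130 bp, inside the initiation range. For eEF2 and eEF5 the start used was also internal, and their summits lay farther from the first start. The same holds for the initiation factors eIF3h and eIF5B. The summits of eIF4A (716 bp) and eIF2Bbeta (672 bp) lay 30 and 47 bp from starts of chic and Ugalt.

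**Figure D3:**
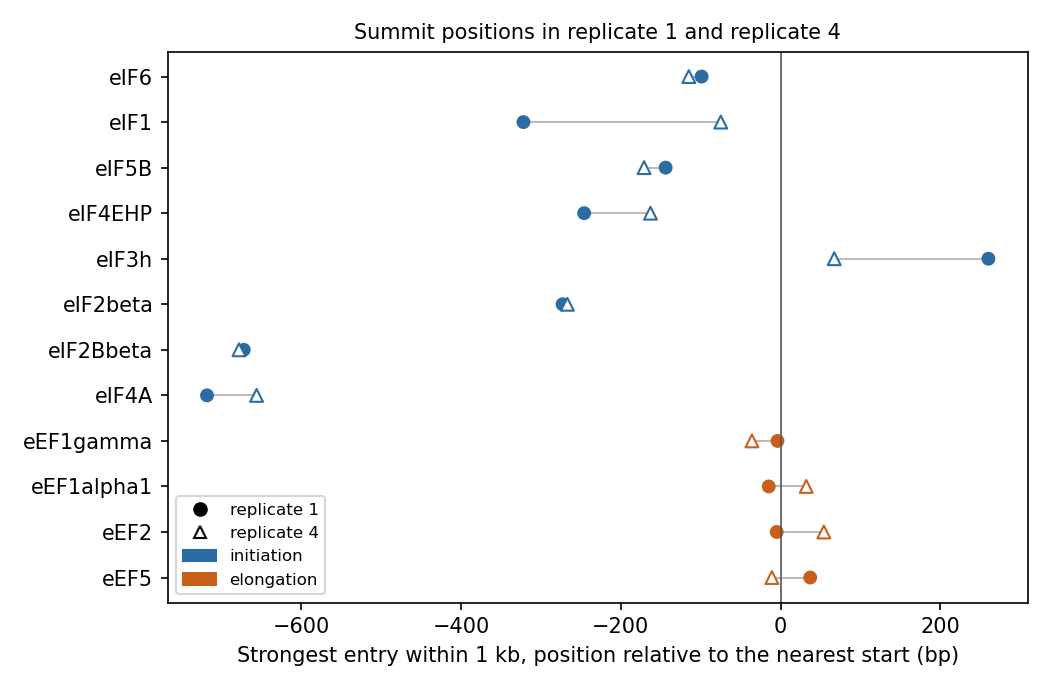
Position of the strongest entry within 1 kb in replicate 1 (circles) and replicate 4 (triangles), relative to the nearest start in bp, for the 12 members with an optimal summit. The elongation factors stay within 54 bp of their nearest start in both replicates, and eIF1 and eIF3h show the widest gaps between replicates.

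Upstream of the nearest start lay 7 of 8 initiation summits and 1 of 4 elongation summits, against 75.1% of all protein-coding genes with a summit. The 7 include eIF5B, whose summit is inside the 5′ UTR of a transcript from its other start. In replicate 1, 3 of the 4 elongation summits were upstream, and in replicate 4, 2 were. The side on which an elongation summit lay therefore differed between the lists.

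Starts of other protein-coding genes lay within 1 kb of most member summits, though for eIF6 and eEF5 they were 673 and 753 bp away. Another protein-coding start was within 1 kb of 8 of the 12 strongest summits, against 46.2% of all genes with a summit, and 7 had a partner transcribed in the opposite direction, against 41.7%. The member's own start was the nearest for 9 of 12, against 77.4%. The 3 exceptions were the initiation factors eIF2Bbeta, eIF4A and eIF4EHP. Without them, 5 of 44 initiation factors (11.4%) and 4 of 8 elongation factors (50%) had a summit, against 16.3% of all genes counted in that way.

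Signals of the members that had a summit were mostly above the middle of the list. Their median was 270.3, against 175.4 for all protein-coding genes with a summit, and 9 of 12 lay above that. The median was 295.2 for the 8 initiation factors and 249.8 for the 4 elongation factors, and the ranges overlapped, at 102.4 to 2420 and 102.7 to 479.6. Both replicates' 7055 strongest entries held a summit within 100 bp for 11 of the 12 (91.7%), against 74.6% of all genes with a summit, and the exception was eIF3h. Of the 11, eIF1 was matched in replicate 1 by an entry of 41.9 at rank 7044, close to the cut at 7055. The optimal list was chosen by agreement between these same replicates, so sharing is partly built into both shares.

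Members without an optimal summit mostly had nothing near their starts. Of these 40 genes, 29 (72.5%) had no entry within 1 kb in the pooled list or in either replicate list, against 62.7% of all genes without an optimal summit. They include 14 of the 16 eIF3 genes, 3 of the 5 eIF2B genes (alpha, delta and epsilon), 7 of the eIF4 group with eIF4B and eIF4H2 among them, eIF2gamma and eIF2D. The elongation factors among them were eEF1alpha2, eEF1beta, part of the eEF1 exchange factor, and eEFSec, the selenocysteine factor. In the full lists, 22 members (42.3%) had an entry in replicate 1, against 43.0% of all genes, and 17 (32.7%) in replicate 4, against 38.2%. The pooled list gave 15 (28.8%), against 37.2%. Of the 40, 6 (15%) had an entry in replicate 1 alone, 1 (2.5%) in replicate 4 alone and 4 (10%) in both. Over all genes without an optimal summit the shares were 13.1%, 7.98% and 15.5% in that order.

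The entries that fell short were weak or rested on 1 replicate. eIF5, the factor that makes eIF2 hydrolyse its GTP, came nearest, with a pooled signal of 62.3. Its entries were 49.4 in replicate 1, at -631 bp from a start, and 25.2 in replicate 4, 150 bp downstream. eIF1A, a partner of eIF1, had 55.9 in the pooled list, with 36.8 in replicate 1 and 20.1 in replicate 4. The replicate 1 entries of eIF2A (48.8) and eIF2Bgamma (47.5) were strong enough for its 7055 strongest, with none near these genes in replicate 4 or the pooled list. eIF4H1 (39.0), eIF3d1 (25.7) and eIF2alpha (16.7) also had an entry in replicate 1 only. eEF1delta had 13.5 in replicate 1 and 15.3 in replicate 4.

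**Figure D4:**
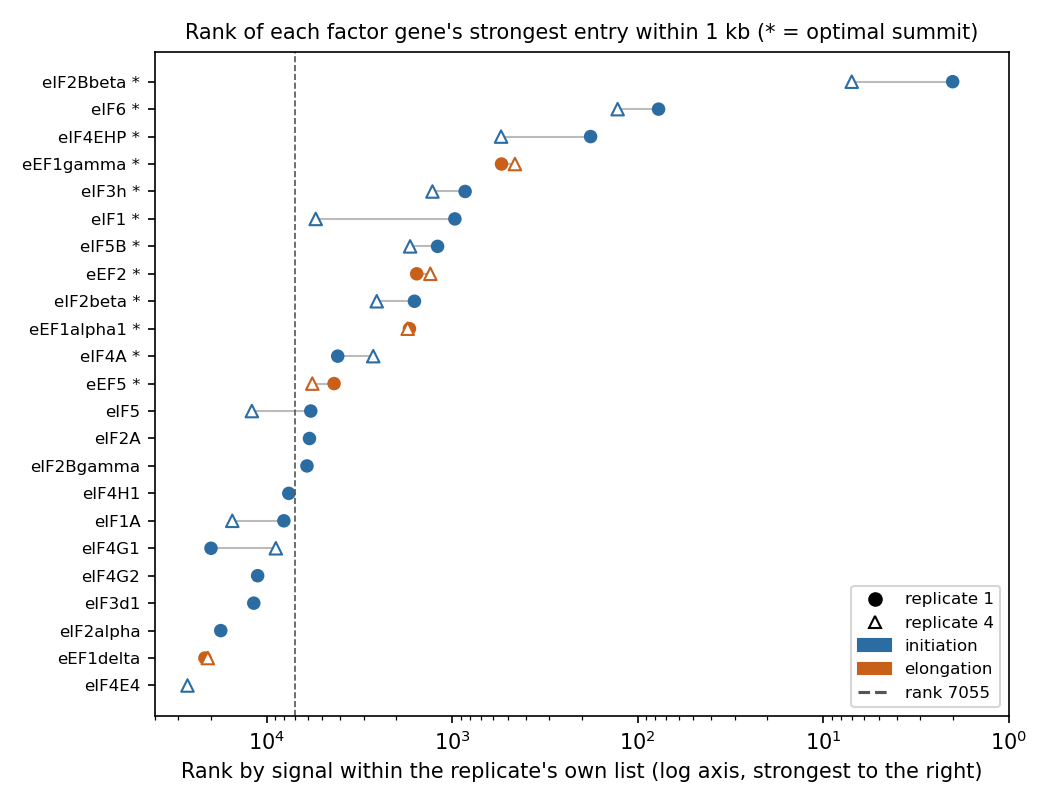
Rank of each factor gene's strongest entry within 1 kb of a start in the replicate's own list of 30000 entries (log axis, strongest to the right), for the 23 members with an entry in either replicate. The 12 members with an optimal summit (asterisks) are right of the dashed line at rank 7055 in both replicates, and the other 11 are left of it in at least 1 replicate or have no entry there.

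Distances from these 40 genes to the nearest optimal summit were not computed for all genes, so no comparison is drawn from them. The nearest optimal summit lay a median of 16609 bp from a start, with a range of 1190 bp for eEF1delta to 590797 bp for eIF4B. It was within 2000 bp for 3 genes, eEF1delta, eIF3d1 and eIF3g1. None of the 40 had a summit in its gene body, and without that count for all genes no comparison is drawn. Counting the gene body plus 1 kb, 14 members had a summit (26.9%), against 26.3% of all genes. Median gene length was 1920 bp for members with a summit and 1967.5 bp for those without. More than 1 start was annotated for 7 of the 12 with a summit and 13 of the 40 without, against 3699 of all 13945 genes. With the most upstream start alone, the same 12 members had a summit, against 18.2% of all genes.

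Sequence words at the member summits rest on small counts, and a single summit moves each share widely. Within 50 bp, ACAAT was present at 4 of 12 summits (33.3%), against 26.8% of the 2189 separate summits that were the strongest of a protein-coding gene. These 4 were all at initiation factors, eIF2Bbeta, eIF4A, eIF1 and eIF6. AACAAT was at 2 of 12 (16.7%), against 12.5%, GAGAG at 1 of 12, against 16.2%, and TATCGATA at 1 of 12 (8.33%), against 1.87%. CACGTG and GGTCACAC were at none, against 1.10% and 1.32%. GGTCACAC was at 2 of 15 in replicate 1 (13.3%), against 1.54%, and at 0 of 12 in replicate 4, against 1.13%. In the optimal list, widening the window to 100 bp gave ACAAT at 7 of 12, 5 of them initiation and 2 elongation factors, against 46.0%. Median A and T content was 57.4% for members and 63.4% for all.

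The TCT initiator is a pyrimidine-rich start sequence that fly ribosomal protein genes are known for and some translation factor genes share. It was read on the gene's strand as C or T followed by CTTT. With its C no more than 2 bp from an annotated start it was found in 1 of 52 members, against 1.32% of all genes, and in 18 of 93 ribosomal protein genes. With 10 bp allowed, a distance chosen after seeing how far annotated starts lay from it, 75 of the 93 ribosomal protein genes had it. At that distance 14 of 52 members (26.9%) had it, against 6.35% of all genes. They were 9 of 44 initiation factors (20.5%), 7 of them eIF3 subunits, and 5 of 8 elongation factors (62.5%).

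The starts of eIF4A and eEF2, which had a summit, are set beside those of eIF3i, eIF3e, eIF3f1 and eEF1alpha2, which had none, from 20 bp before to 20 bp after the start on the gene's strand, with the initiator in capitals. In order, the windows are chr2L:5981744-5981784 (+), chr2L:21682096-21682136 (−), chr2L:4967755-4967795 (−), chr3L:16786921-16786961 (−), chr3R:4714162-4714202 (−) and chr3R:31739640-31739680 (+).
eIF4A: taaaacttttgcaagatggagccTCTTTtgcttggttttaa
eEF2: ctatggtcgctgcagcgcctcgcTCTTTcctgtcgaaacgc
eIF3i: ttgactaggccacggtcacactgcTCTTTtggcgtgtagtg
eIF3e: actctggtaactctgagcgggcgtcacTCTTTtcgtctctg
eIF3f1: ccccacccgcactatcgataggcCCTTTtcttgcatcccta
eEF1alpha2: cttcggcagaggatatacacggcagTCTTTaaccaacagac

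With the 10 bp allowance, 4 of 14 members with the initiator had a summit (28.6%), and 8 of 38 without it (21.1%). Among initiation factors it was 1 of 9 with the initiator, eIF4A, whose summit lay by chic, and 7 of 35 without it. The eIF3 genes had 0 of 7 with it and 1 of 9 without it. Of 5 elongation factors with it 3 had a summit, eEF2, eEF1alpha1 and eEF5, and of 3 without it 1 did. At these counts a single gene moves each share widely, and no difference is read from them. In eEF1alpha1 the initiator was at the first start, and the stronger summit was at another. Over all genes, 33.0% of those with the initiator and 19.4% of those without had a summit. For ribosomal protein genes the counts were 52 of 75 with the initiator (69.3%) and 9 of 18 without it. Outside the ribosomal protein and factor genes, the share with the initiator was 29.6%.

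Other genes of translation showed a range of shares. Of the regulators of initiation, 9 of 17 in the annotation had a summit (52.9%), with 12 in replicate 1 and 8 in replicate 4. Within 500 bp of a start it was 6 of 17 (35.3%), against 17.1% of all genes, a distance tried after the positions were seen. They were led by Lk6, a kinase that phosphorylates eIF4E (2126.6, at -967 bp), larp, an RNA-binding protein (1974), and pAbp, the poly(A)-binding protein (399.0). Release and recycling factors had 3 of 7 (42.9%), eRF1 (190.6), eRF3 (111.4) and pelo (83.2), with 4 in replicate 1 and 1 in replicate 4. Genes for tRNA synthetases had 5 of 19 (26.3%), led by GluProRS (283.1), IleRS (193.4) and AspRS (179.4), with 6 in replicate 1 and 5 in replicate 4. Mitochondrial translation factors had 1 of 9, mIF2 (83.4), with 0 in replicate 1 and 1 in replicate 4. All of these are set against the same 20.3% of protein-coding genes, and the differences between the lists were not tested.

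Transcript level and promoter accessibility were not measured in the files used. Their part in which factor genes carried a summit was not tested.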

How the data were processed

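ChIP-seq peak lists in the narrowPeak layout were used on dm6, 1 for each replicate, 1 pooled and 1 optimal list. The deposited text records derive the replicate and pooled lists from read alignments plus a control, and the optimal list from those 3 by an irreproducible discovery rate cut-off. That cut-off, the aligner and the peak caller were not given in the sources used here. Each signal value is the authors' own, as deposited. The deposited −log10 q-value was not used for ranking, and dm3 lists were not used. Depth is unknown.

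Starts came from Ensembl release 115 (BDGP6.54, arms 2L, 2R, 3L, 3R, 4 and X) and sequence from the release 6 assembly, inside whose arms all dm6 peaks end. Replicates were matched by the strongest entry within 100 bp of a summit, and a gene's position and signal are those of its strongest summit. For replicate comparisons the 7055 strongest entries were taken. Scripts (Python 3.11.15, pandas 2.3.3) were tested on simulated data. Values were given for every member with a summit, for members without one their strongest entry within 1 kb, and for other lists the 3 strongest genes. Members, lists and words were chosen with earlier results of these data known. Of the symbols written, Tor, Gadd34, Mnk and mEFG2 did not match the annotation and were not used here. Sequences of arm 2R are not shown.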

Additional observations from a re-analysis of the deposited data

How the results depend on the processing

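Counting choices moved the number of members with a summit between 9 and 15 around the 12 reported, and the elongation count between 3 and 5 around 4. Only summits with no nearer start of another gene left 5 of the 8 initiation factors. With the whole pooled list 15 members were counted (28.8%, against 37.2% of all genes), with 2000 bp to a start 15 (28.8%, against 25.4%), and with 500 bp 10 (19.2%, against 17.1%). Leaving out replicate 1 gave 12 members (8 initiation, 4 elongation) and leaving out replicate 4 gave 15 (11 and 4). The median distance of 127.5 bp became 245.0 bp with 2000 bp to a start, 200.5 bp in the 3527 strongest peaks and 194.0 bp in the whole pooled list, and was 95.0 to 144.0 bp with 1 replicate left out. The median signal of 270.3 became 277.0, 301.8 and 222.7 in those same settings, and was 126.0 to 128.4 in single replicate lists, whose scale differs by construction. The upstream share of 66.7% became 60% with 500 bp and 53.3% in the whole pooled list, and was 75.0 to 80.0% with 1 replicate left out. Within 50 bp, 8 member summits were shared by the replicates, in place of 11. ACAAT summits numbered 4 of 12 (against 26.8% of all), and 7 of 12 with 100 bp to each side (against 46.0%). They numbered 5 of 15 in replicate 1 (against 28.2%) and 6 of 12 in replicate 4 (against 26.4%). TATCGATA numbered 1 of 12, 2 of 12 with 100 bp and 3 of 15 in replicate 1, against 1.87%, 3.75% and 2.72% of all. GGTCACAC numbered 0, 1 and 2 in the same settings, against 1.32%, 2.79% and 1.54%. Within 500 bp the regulators of initiation with a summit numbered 6 in place of 9, a distance added after seeing the data. Members with a TCT initiator numbered 1, and 14 with 10 bp allowed, an alternative chosen after seeing the data. The cause of these shifts was not tested, except that a wider window can only add sequence or summits. No paired analysis was possible because the replicates form 1 group.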
